A study of Homo sapiens with 6 samples.

Results

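The genes described are the 10 of the Hippo core cassette, chosen by name out of 60683 rows of the count table: the coactivator genes YAP1 and WWTR1, the kinase genes LATS1, LATS2, STK3 and STK4, the adaptor genes SAV1, MOB1A and MOB1B, and NF2. Each matched 1 row, and all 10 passed the filter on low counts. Messenger RNA was sequenced from 143B cells, a human osteosarcoma line derived from the HOS line, as 3 libraries from cells given TPBC-PEG for 24 h and 3 from cells given PBS, the buffer control, for 24 h. The dose of TPBC-PEG is 3 µM in the titles and 300 µM in the treatment protocol, so it is not settled, and no label says whether the sequenced cells were exposed to light. Cells were seeded in wells for 24 h before treatment. Separate cultures are not stated for the 3 libraries of a group, so a p-value here reflects the spread among these libraries alone, and that spread may be technical. The series title names HIPPO signalling and photodynamic therapy, a treatment in which a compound forms reactive oxygen species under light. The comparison asks whether the mRNAs of the cassette itself differ after TPBC-PEG. Protein, phosphorylation and the location of YAP1 and TAZ in the cell were not measured in these libraries.

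The Hippo pathway is a kinase cascade that restrains growth. The MST kinases, encoded by STK4 (MST1) and STK3 (MST2), act with the scaffold SAV1 and activate the LATS kinases, which bind the MOB1 adaptors. Merlin, the NF2 product, brings LATS to the membrane. Active LATS phosphorylates YAP and TAZ (the WWTR1 product), which are then held in the cytoplasm or degraded. Unphosphorylated YAP and TAZ enter the nucleus and drive transcription with the TEAD factors. Most of this control acts on proteins, and mRNA levels give only the amount of transcript behind each one. In osteosarcoma, as in other sarcomas, YAP and TAZ are known for promoting growth.

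Libraries held 15726323 to 20486584 counts. Levels are in CPM, read counts relative to the library total after TMM scaling. Across genes, Pearson's r of log2 CPM was 0.992 to 0.993 for libraries of the same group and 0.985 to 0.988 for libraries of different groups. The bone and mesenchymal identity of the line was checked on marker mRNAs: 6 of 8 osteoblast lineage markers and 3 of 3 mesenchymal markers reached 2 CPM in some library, with SP7 and BGLAP near 0. Of 5 epithelial markers, 3 did so (KRT18, KRT8 and EPCAM). None of 4 haematopoietic or 3 endothelial markers reached 2 CPM. Summed, the epithelial markers ran from 679 to 742 CPM with TPBC-PEG and from 902 to 942 CPM with PBS, and the mesenchymal markers from 2469 to 2570 CPM with TPBC-PEG and from 2802 to 2849 CPM with PBS. Single genes carried these sums, KRT18, at a mean of 568 CPM with TPBC-PEG and 762 with PBS, and VIM, at 2344 with TPBC-PEG and 2577 with PBS. Of the other mesenchymal markers, FN1 averaged 80 CPM with TPBC-PEG and 153 with PBS, and CDH2 104 with TPBC-PEG and 98.8 with PBS. KRT8 averaged 121 CPM with TPBC-PEG and 139 with PBS, and EPCAM 17 with TPBC-PEG and 16.1 with PBS. The osteoblast lineage markers summed to 463 to 500 CPM with TPBC-PEG and 502 to 521 CPM with PBS, most of it SPARC, which averaged 366 with TPBC-PEG and 413 with PBS. RUNX2 averaged 25.8 CPM with TPBC-PEG and 17.6 with PBS, and SPP1 30.9 with TPBC-PEG and 17.8 with PBS. The part of these markers in the results was not tested.

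All 10 genes were transcribed in every library, at levels that spanned a wide range. Levels between genes are compared per kilobase of exon, because longer transcripts collect more reads. YAP1 was the most abundant, at 48.9 ± 0.558 CPM per kb with TPBC-PEG and 47.8 ± 1.95 with PBS (mean ± SD, n = 3 each), above 94.7% of the genes tested. MOB1A followed at 27 ± 0.713 with TPBC-PEG and 29.5 ± 1.26 with PBS, then WWTR1 at 25.6 ± 0.46 with TPBC-PEG and 24.7 ± 0.911 with PBS, and STK4 at 22.8 ± 0.371 with TPBC-PEG and 22 ± 0.416 with PBS. SAV1, MOB1B, NF2, LATS1 and LATS2 lay between 5.39 and 14.3 CPM per kb in single libraries. STK3 was the least abundant, at 2.43 ± 0.055 with TPBC-PEG and 2.79 ± 0.109 with PBS, above 40.3% of the genes tested.

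The order of the 10 genes was the same in both groups, and most neighbours in it were apart in all libraries. The exceptions were NF2 and LATS1 with TPBC-PEG, at 7.4 ± 0.397 and 7.39 ± 0.218 CPM per kb, and MOB1B and NF2 with PBS, at 10.5 ± 1.14 and 9.08 ± 0.694, whose libraries overlapped. The exon length is that of all annotated exons joined, so a gene with long exons that these cells do not use is placed too low.

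**Figure D1:**
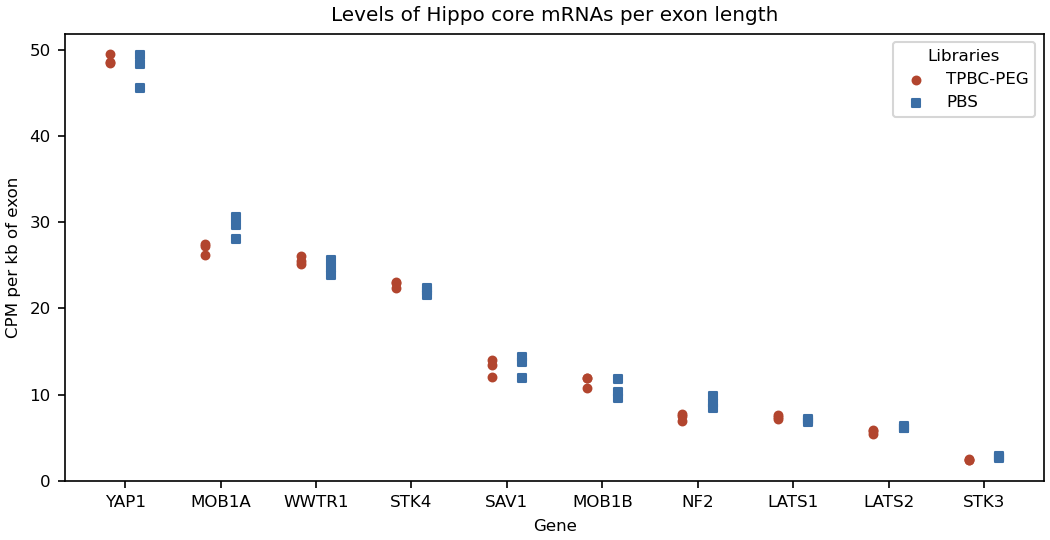
Level of each Hippo core mRNA in CPM per kb of exon (vertical axis, linear from 0), with 1 point per library, TPBC-PEG as circles and PBS as squares. YAP1 stands near 48 in both groups and STK3 under 3, and the groups differ far less than the genes do.

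Of the 10 genes, 3 fell with TPBC-PEG, NF2, STK3 and MOB1A, and none rose, where a gene was called at a Benjamini-Hochberg adjusted p under 0.05 over 15846 genes in edgeR's quasi-likelihood test. Over all genes tested 33.2% were called, 16.9% lower and 16.2% higher, so 3 of 10 is near the background. The median log2 fold change was 0.0089 for the 10 genes and 0.011 for all genes tested. The libraries of the groups did not overlap for 5 of the 10 genes, against 43.4% of all genes. With library size alone as the scaling, 3 of the 10 were called but with another split: STK4 and MOB1B higher and NF2 lower. The split over all genes moved as well under this scaling, to 20.3% higher and 12.4% lower, with 32.7% called. With the trend of fold change with expression level removed, 6 of the 10 were called, YAP1, WWTR1, STK4 and MOB1B higher and NF2 and STK3 lower, where 31.8% of all genes were called, so the count of the cassette depends on that setting.

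**Figure D2:**
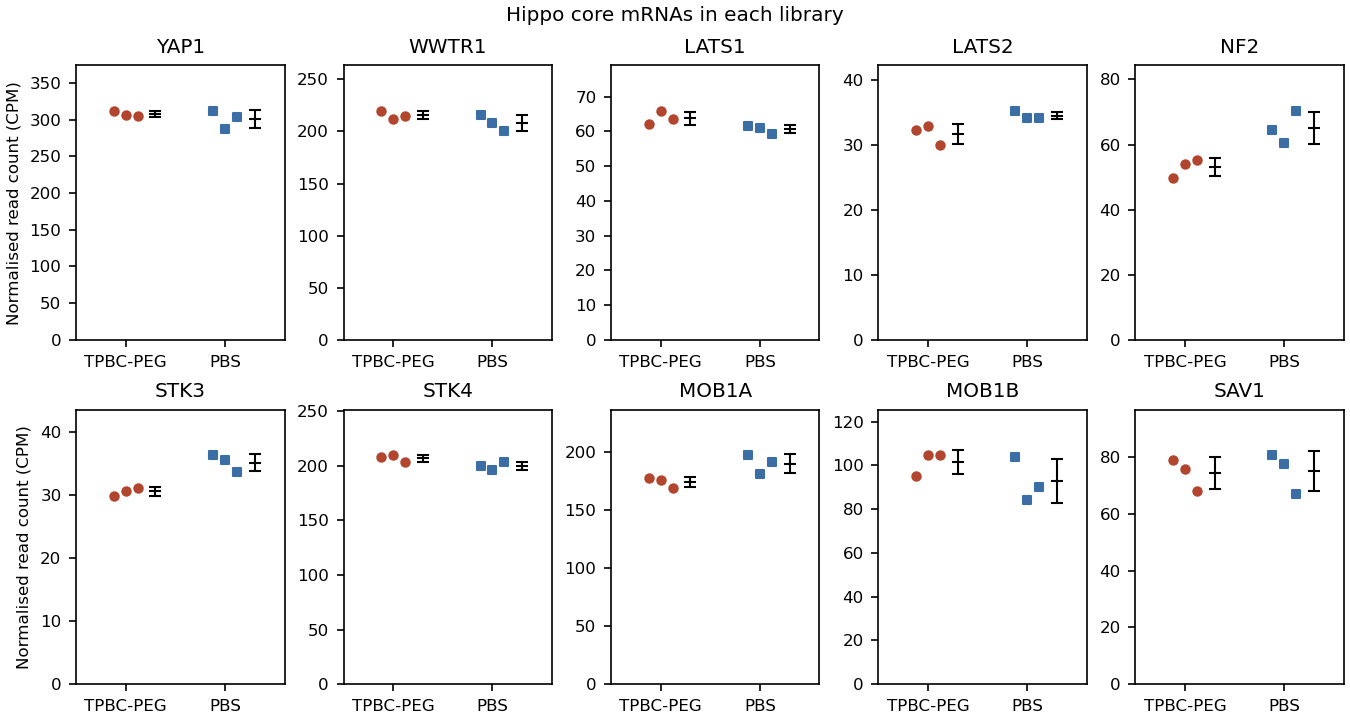
TMM-scaled CPM (vertical axes, linear from 0) of the 10 genes in each library, TPBC-PEG as circles at the left and PBS as squares at the right, with mean and SD (n = 3) beside each group. The points part most clearly for NF2 and STK3, and lie at like heights for YAP1, WWTR1, STK4 and SAV1.

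YAP1, on chromosome 11 (102110461 to 102233423, forward strand, GRCh38), encodes the coactivator YAP. It had 6065, 6348 and 4867 counts with TPBC-PEG and 5966, 5183 and 4822 with PBS. After scaling these were 312, 306 and 305 CPM with TPBC-PEG and 311, 287 and 304 CPM with PBS. The groups overlapped, with PBS replicate 2 lowest. The log2 fold change was 0.032 ± 0.037 (SE; edgeR adjusted p = 0.554), and its 95% interval ran from -2.93% to 7.75%. Of the YAP1 exon length, 9.97% overlaps AP000942.2 on the opposite strand, which had a count of 0 in every library.

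WWTR1, on chromosome 3 (149517235 to 149736714, reverse strand), encodes TAZ. It stood at 220, 212 and 215 CPM with TPBC-PEG and 216, 208 and 201 CPM with PBS. The groups overlapped again, and WWTR1-AS1, an antisense gene that overlaps 9.45% of the WWTR1 exon length, stood at 0.252 to 1.03 CPM. The log2 fold change was 0.050 ± 0.039 (SE; edgeR adjusted p = 0.355), with a 95% interval from -1.95% to 9.25%. For both coactivators the sign turned when the trend of fold change with GC content was removed (-0.0089 for YAP1 and -0.00025 for WWTR1). Both passed as higher when the trend with expression level was removed, at 0.11 for YAP1 (edgeR adjusted p = 0.0159) and 0.12 for WWTR1 (adjusted p = 0.0146). That trend, the smoothed log2 fold change of genes of like abundance, was -0.081 at the level of YAP1 and -0.070 at that of WWTR1.

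Neither LATS kinase gene passed the test, and their estimates had opposite signs. LATS1 (chromosome 6, 149658153 to 149718256, reverse strand) stood at 62.1, 65.9 and 63.5 CPM with TPBC-PEG and 61.6, 60.9 and 59.3 CPM with PBS. All 3 TPBC-PEG values lay above the PBS values, by a small margin. The log2 fold change was 0.075 ± 0.053 (SE; edgeR adjusted p = 0.302), with a 95% interval from -2.18% to 13.4%. LATS2 (chromosome 13, 20973032 to 21061547, reverse strand), which is also a known YAP target that feeds back on the pathway, stood at 32.3, 33 and 30 CPM with TPBC-PEG and 35.3, 34.2 and 34.2 CPM with PBS. All 3 TPBC-PEG values lay below the PBS values. The log2 fold change was -0.12 ± 0.067 (SE; edgeR adjusted p = 0.181), with a 95% interval from -16.2% to 1.18%. Neither LATS gene was called under any of 17 other settings.

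The MST kinase genes differed in level and in outcome. STK3 (chromosome 8, 98371228 to 98942827, reverse strand) had 29.9, 30.7 and 31.2 CPM with TPBC-PEG and 36.3, 35.5 and 33.7 CPM with PBS, and the groups did not overlap. It fell by 13.2% (95% interval -21% to -4.61%), a log2 fold change of -0.20 ± 0.067 (SE; edgeR adjusted p = 0.0157). The call rests on 498 to 697 counts per library, where counting alone gives a spread of 4.09%. It was lost without TPBC-PEG replicate 1 (edgeR adjusted p = 0.0694), without PBS replicate 1 (0.057) and with library size alone (0.0669). STK4 (chromosome 20, 44966474 to 45079959, forward strand) had 208, 210 and 203 CPM with TPBC-PEG and 200, 196 and 203 CPM with PBS. Only TPBC-PEG replicate 3 and PBS replicate 3 overlapped, both at 203 CPM. Its log2 fold change was 0.051 ± 0.038 (SE; edgeR adjusted p = 0.336), with a 95% interval from -1.81% to 9.24%. STK4 was called higher when only library size set the scaling (0.094, edgeR adjusted p = 0.0476) and when the expression-level trend was removed (0.12, adjusted p = 0.0135).

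SAV1 (chromosome 14, 50632058 to 50668331, reverse strand), the scaffold of the MST kinases, had 79, 75.9 and 68 CPM with TPBC-PEG and 80.7, 77.5 and 67 CPM with PBS. The groups spanned nearly the same range, and the coefficient of variation was 7.62% with TPBC-PEG and 9.52% with PBS, where counting alone gives 2.7%. The log2 fold change was -0.015 ± 0.061 (SE; edgeR adjusted p = 0.887), with a 95% interval from -9.26% to 7.97%. Its sign turned under 5 of 17 other settings. Exons of SAV1 overlap those of ATL1, a gene on the opposite strand, over 14.9% of their length, and ATL1 itself stood at 1.72 to 2.95 CPM.

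Of the MOB1 adaptor genes, MOB1A fell and MOB1B did not pass the test. MOB1A (chromosome 2, 74152528 to 74178898, reverse strand) had 177, 176 and 169 CPM with TPBC-PEG and 197, 181 and 191 CPM with PBS, without overlap. It fell by 8.32% (95% interval -13.3% to -3.03%), a log2 fold change of -0.13 ± 0.04 (SE; edgeR adjusted p = 0.0126). The call was lost without PBS replicate 1 (edgeR adjusted p = 0.0649), without TPBC-PEG replicate 3 (0.0685) and when only library size set the scaling (0.113). Removing the expression-level trend also ended it, at -0.061 (edgeR adjusted p = 0.266). MOB1B (chromosome 4, 70902326 to 71022449, forward strand) had 95.1, 105 and 105 CPM with TPBC-PEG and 104, 84.3 and 90.2 CPM with PBS. PBS replicate 1 stood with the TPBC-PEG libraries. Exons of DCK, a gene on the same strand, overlap 2.26% of the MOB1B exon length, and DCK stood at 40 to 54.5 CPM, with a log2 fold change of -0.15 (edgeR adjusted p = 0.0794). The log2 fold change was 0.13 ± 0.061 (SE; edgeR adjusted p = 0.126), with a 95% interval from -0.122% to 19.2%. Without PBS replicate 1 it was 0.21 and MOB1B was called higher (edgeR adjusted p = 0.00243). It was also called without TPBC-PEG replicate 1 (0.17, adjusted p = 0.0424), under scaling by library size (0.17, adjusted p = 0.0383) and after removal of the expression-level trend (0.16, adjusted p = 0.0474).

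NF2 (chromosome 22, 29603556 to 29698598, forward strand), the gene of merlin, changed the most of the 10. It had 970, 1122 and 881 counts with TPBC-PEG and 1237, 1090 and 1115 with PBS. Scaled, these were 49.8, 54.1 and 55.2 CPM with TPBC-PEG and 64.5, 60.4 and 70.3 CPM with PBS, and every TPBC-PEG value lay below every PBS value. NF2 fell by 18.4% (95% interval -24.8% to -11.6%), a log2 fold change of -0.29 ± 0.058 (SE; edgeR adjusted p = 6.17e-05). It was called lower under all 17 other settings, with log2 fold changes from -0.35 to -0.24 and adjusted p from 2e-06 to 0.00299. No exon of NF2 overlaps another annotated gene.

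**Figure D3:**
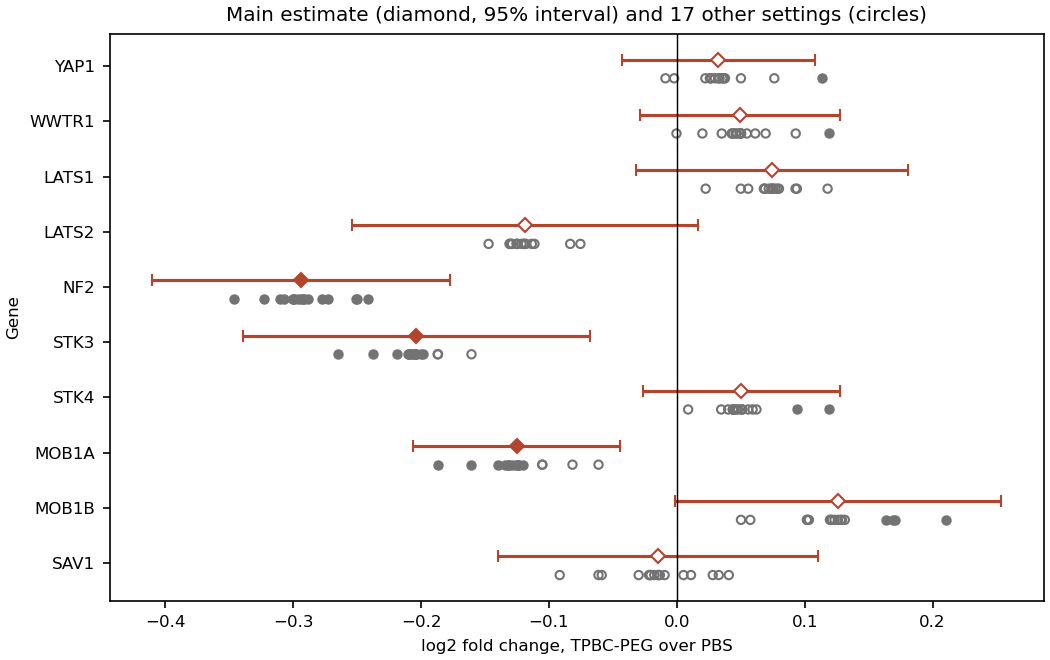
Log2 fold change of TPBC-PEG over PBS (horizontal axis) for each gene. Diamonds are the main estimate with its 95% interval and circles the 17 other settings, filled where the adjusted p was under 0.05. NF2 is filled throughout, from -0.35 to -0.24, and SAV1 lies on both sides of 0.

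Ratios within a library do not depend on how libraries are scaled, so the 4 pairs of related genes were also compared as ratios of counts. The longest stretch shared by coding transcripts of a pair was 20 to 25 bases, so a read of 100 bases could not match both members of a pair. The log2 ratio of YAP1 to WWTR1 was 0.51, 0.53 and 0.51 with TPBC-PEG and 0.53, 0.47 and 0.60 with PBS, and the groups overlapped. The ratio of LATS1 to LATS2 was 0.94, 1.00 and 1.08 with TPBC-PEG and 0.80, 0.83 and 0.79 with PBS, all higher with TPBC-PEG. The ratio of STK3 to STK4 was -2.80, -2.77 and -2.70 with TPBC-PEG and -2.46, -2.46 and -2.59 with PBS, all lower with TPBC-PEG. The ratio of MOB1A to MOB1B was 0.90, 0.75 and 0.69 with TPBC-PEG and 0.92, 1.10 and 1.09 with PBS. These did not overlap either, though TPBC-PEG replicate 1 and PBS replicate 1 lay close together. Over all genes tested, the groups did not overlap for 43.4% of single genes. The share among other pairs of genes was not computed.

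As differences of mean log2 ratios, TPBC-PEG minus PBS, these were -0.018 for YAP1 to WWTR1, 0.20 for LATS1 to LATS2, -0.25 for STK3 to STK4 and -0.26 for MOB1A to MOB1B. They are descriptions with no test. STK3 made up 12.9% of the counts of its pair with TPBC-PEG and 15% with PBS. Added up per kilobase, no pair parted the groups. YAP1 plus WWTR1 came to 74.5 ± 0.983 CPM per kb with TPBC-PEG and 72.5 ± 2.4 with PBS (SD, n = 3 each), and LATS1 plus LATS2 to 13.1 ± 0.408 with TPBC-PEG and 13.2 ± 0.223 with PBS. STK3 plus STK4 came to 25.2 ± 0.342 with TPBC-PEG and 24.8 ± 0.356 with PBS, and MOB1A plus MOB1B to 38.5 ± 0.585 with TPBC-PEG and 40 ± 2.35 with PBS. In bulk RNA, fewer cells that express a gene and less RNA per cell cannot be told apart.

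**Figure D4:**
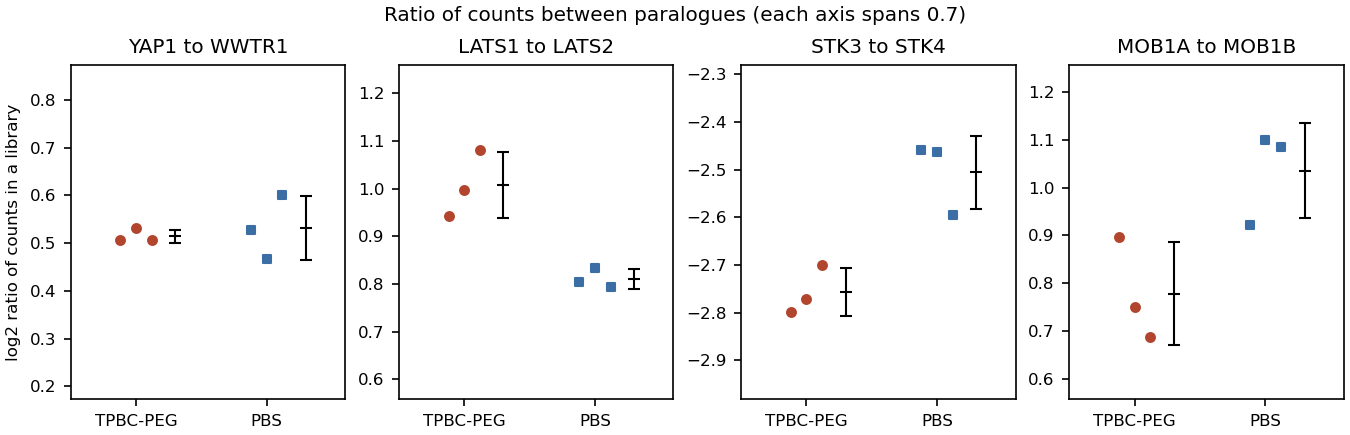
Log2 ratio of read counts between 2 related genes in each library (vertical axes, which do not start at 0 and each span 0.7 log2 units), TPBC-PEG as circles at the left and PBS as squares at the right, with mean and SD (n = 3). The groups are apart for LATS1 to LATS2, STK3 to STK4 and MOB1A to MOB1B and overlap for YAP1 to WWTR1.

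The other genes of the pathway were described in 3 lists. Of 60 genes of upstream regulation (cadherins, MAP4K and TAO kinases, RASSF, angiomotin and LIM proteins, the STRIPAK phosphatase complex and polarity proteins), 57 were tested, 6 rose and 11 fell, which is 29.8% called against 33.2% of all genes, with a median log2 fold change of -0.025. FAT1, an atypical cadherin gene, fell to 176 ± 12.8 CPM with TPBC-PEG, against 226 ± 10.6 with PBS (SD, n = 3 each), a log2 fold change of -0.37. SCRIB, a polarity scaffold gene, changed by -0.32, PPP2R1A, the scaffold subunit of the phosphatase PP2A, by -0.31, and MINK1, a MAP4K family kinase, by -0.25. FAT4, another atypical cadherin gene, rose by 0.41, STRIP2, a STRIPAK subunit, by 0.31, TAOK3, a TAO kinase, by 0.19, and FBXW11, a ubiquitin ligase subunit, by 0.16. With library size alone 12 of the 57 rose and 7 fell (21.1% and 12.3%), where 20.3% of all genes were higher and 12.4% lower. Without TPBC-PEG replicate 2, 11 were called (19.3%), where 25.6% of all genes were. The TAOK3 call was lost without TPBC-PEG replicate 2 (edgeR adjusted p = 0.0896) and without PBS replicate 1 (0.0778).

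Of the 8 TEAD and VGLL genes 7 were tested, 2 fell and none rose, which is 28.6% called, near the 33.2% of all genes. TEAD1, a DNA-binding partner of YAP and TAZ, stood at 275, 282 and 281 CPM with TPBC-PEG and 291, 274 and 276 CPM with PBS, a log2 fold change of -0.0049 (edgeR adjusted p = 0.939). TEAD4 had 53.4, 50.3 and 55.2 CPM with TPBC-PEG and 60.4, 62.7 and 60.3 CPM with PBS, and fell by 0.21 on the log2 scale (edgeR adjusted p = 0.00239). VGLL3, a cofactor that binds TEAD in place of YAP, fell by 0.14 (edgeR adjusted p = 0.0221). The VGLL3 call was lost without TPBC-PEG replicate 2 (edgeR adjusted p = 0.172) or PBS replicate 2 (0.0757), after removal of the expression-level trend (0.0692) and under scaling by library size (0.131). TEAD2 and TEAD3 did not pass, at -0.22 and 0.12, though TEAD3 did without PBS replicate 2 (0.28, edgeR adjusted p = 0.0329). Both moved widely as each library was left out, TEAD3 from 0.0041 without PBS replicate 1 to 0.28 and TEAD2 from -0.36 without PBS replicate 1 to -0.030 without TPBC-PEG replicate 2. Under scaling by library size, after removal of the expression-level trend or without TPBC-PEG replicate 2, 1 gene of this list was called (14.3%). Of all genes, 32.7%, 31.8% and 25.6% were called under these settings, in that order.

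The last list holds 22 genes known to be induced by YAP and TAZ, a published signature in which LATS2 also stands. Of these, 13 fell (59.1%) and 2 rose (9.09%), against 16.9% lower and 16.2% higher over all genes. The median log2 fold change was -0.21. With the expression-level trend removed it was -0.12, with 12 lower and 2 higher, where 15.4% of all genes were lower and 16.4% higher. Under the 17 other settings 14 to 17 of the 22 were called. ANKRD1, a muscle ankyrin repeat gene, had 191, 177 and 201 CPM with TPBC-PEG and 328, 319 and 330 CPM with PBS. CCN2, which encodes a matricellular growth factor, had 587, 563 and 649 CPM with TPBC-PEG and 895, 861 and 858 CPM with PBS. Both were far below their PBS levels in each TPBC-PEG library, and the log2 fold changes were -0.78 ± 0.04 and -0.54 ± 0.04 (SE). FJX1 fell by 0.51 and AMOTL2, an angiomotin family gene whose product binds YAP, by 0.46. CCN1 had 514, 511 and 558 CPM with TPBC-PEG and 543, 578 and 565 CPM with PBS, which overlap, and did not pass (-0.090, edgeR adjusted p = 0.0598). It was called lower without PBS replicate 1 (-0.12) or TPBC-PEG replicate 3 (-0.13), with DESeq2 size factors (-0.096) and with the GC trend removed (-0.11), and its sign turned with the expression-level trend removed (0.0047). IGFBP3 rose by 0.23 and GADD45A by 0.20, both also known as p53 targets. NF2, at -0.29, had the largest change of the cassette, and ANKRD1, CCN2, FJX1 and AMOTL2 each changed by more.

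**Figure D5:**
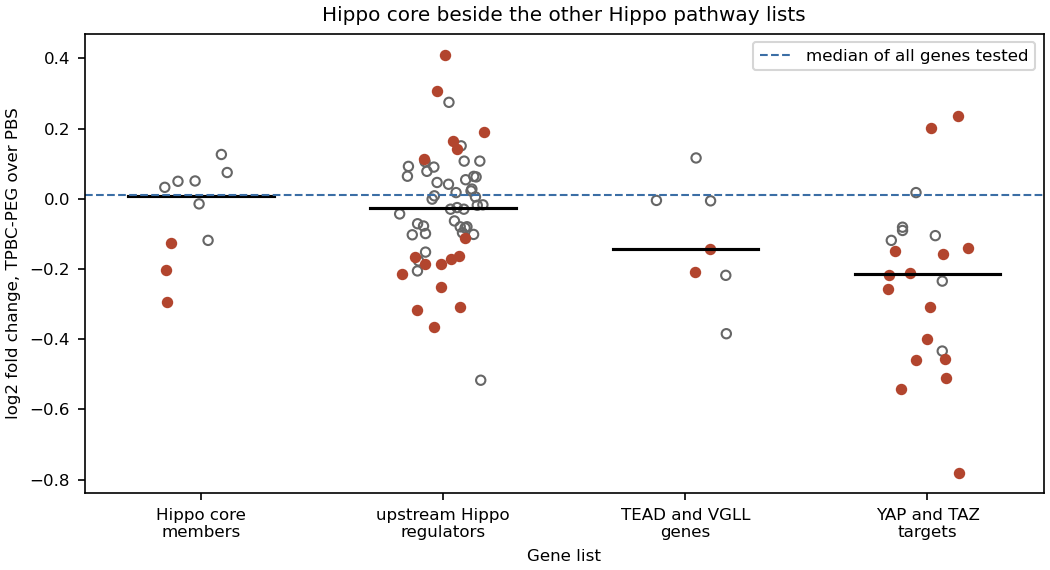
Log2 fold change of TPBC-PEG over PBS (vertical axis) for each tested gene of 4 lists, with called genes filled, a bar at the list median and a dashed line at the median of all genes tested (0.011). The Hippo core lies around 0, between -0.29 and 0.13, while the YAP and TAZ targets lie mostly below 0, down to -0.78.

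Promoter sequences are shown for the members NF2 and MOB1A, which fell and whose promoters are in the RefSeq table. The sequences of CCN2 and ANKRD1, 2 of the YAP target genes, are shown beside them. Each is the 250 bases before a RefSeq start site (GRCh38.p14), 5′ to 3′ on the gene's strand, with capitals marking GGAATG or its reverse complement CATTCC, the core that TEAD factors are known to bind. NF2 is at chr22:29603306-29603555 (forward), MOB1A at chr2:74178880-74179129 (reverse), CCN2 at chr6:131951373-131951622 (reverse) and ANKRD1 at chr10:90921088-90921337 (reverse).
NF2: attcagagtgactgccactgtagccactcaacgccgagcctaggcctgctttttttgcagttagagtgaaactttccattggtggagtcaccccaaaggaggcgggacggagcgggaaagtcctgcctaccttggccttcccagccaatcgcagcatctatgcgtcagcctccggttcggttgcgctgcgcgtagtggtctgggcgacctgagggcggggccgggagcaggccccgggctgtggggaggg
MOB1A: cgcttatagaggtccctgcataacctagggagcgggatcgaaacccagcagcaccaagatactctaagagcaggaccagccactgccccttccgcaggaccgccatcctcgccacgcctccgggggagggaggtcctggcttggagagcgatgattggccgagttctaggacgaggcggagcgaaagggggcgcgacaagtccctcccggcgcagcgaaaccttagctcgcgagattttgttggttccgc
CCN2: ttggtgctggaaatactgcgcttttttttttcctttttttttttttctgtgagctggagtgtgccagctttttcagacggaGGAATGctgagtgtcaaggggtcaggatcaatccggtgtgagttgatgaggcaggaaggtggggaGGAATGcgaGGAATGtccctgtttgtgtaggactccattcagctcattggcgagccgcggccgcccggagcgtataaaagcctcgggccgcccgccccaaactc
ANKRD1: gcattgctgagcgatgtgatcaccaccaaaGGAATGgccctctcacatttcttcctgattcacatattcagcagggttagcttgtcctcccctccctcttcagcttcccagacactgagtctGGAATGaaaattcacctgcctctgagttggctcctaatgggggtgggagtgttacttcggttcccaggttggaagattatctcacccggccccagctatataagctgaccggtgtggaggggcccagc
The CCN2 window held the letters 3 times, at -169, -104 and -95 from the start site, and the ANKRD1 window 2 times, at -220 and -128. The NF2 and MOB1A windows held none. Windows of the other genes in the target list were not examined by gene, so CCN2 and ANKRD1 do not stand for that list. Of the 9 cassette genes with a promoter in the table, YAP1 had 1 match, at -162, in its window. For the other 8 no window in the table held the letters, and 4 of these genes, WWTR1, LATS1, MOB1A and NF2, have 2 windows each. The nearer WWTR1 window lies 33441 bases inside the GENCODE gene, so the DNA before the annotated WWTR1 start was not scanned. Of all 35116 promoter windows of this length, 11.9% held at least 1 match and 0.94% held 2 or more. A match is a run of letters and not a binding site, and no match says only that these letters are not in this window.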

How the data were processed

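RNA of 143B cells was sequenced in 3 TPBC-PEG and 3 PBS libraries. The authors deposited raw read counts per gene. The submitters' processing notes name HISAT2 and the build GRCh38. How reads were counted, on which annotation and with which strand setting is not given in the sources used here, so reads from overlapping genes on opposite strands may not be told apart. Counts were analysed with edgeR 4.0.16 in R 4.3.3: filterByExpr (minimum count 10, minimum total 15) kept 15846 genes, libraries were scaled by TMM, and the robust quasi-likelihood test compared TPBC-PEG with PBS, with Benjamini-Hochberg adjustment over all genes tested and calls at an adjusted p under 0.05. Standard errors came from the F statistic and intervals from the t distribution. Positions, exon lengths and overlaps came from GENCODE release 29. Library totals ran from 15726323 to 20486584, and counting spreads cover counting error only.

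Other settings were DESeq2 1.42.0, limma-voom (limma 3.58.1), other scalings and filters, offsets (lowess, span 0.3), a replicate block and leaving out each library. The members, lists and settings were chosen with earlier results of these data known. In the other lists, genes were named by rule: in each direction up to 4 called genes of 1 CPM or more, taken by size of change, and TEAD1 to TEAD4, CCN1, CCN2, ANKRD1 and AMOTL2. VGLL1, MAP4K1, RASSF6 and CRB3 were not tested, at 6 counts or fewer. On simulated data for TPBC-PEG against PBS (15846 genes), the test recovered 68% of genes changed 1.25-fold and 98% of those changed 1.5-fold, with 12 of 194 calls false. Only a small share of genes was changed in the simulation, none of them at low expression, while 33.2% were called in the data. These rates may therefore not carry over to the data. Smaller changes, such as those of the 10 genes, were not simulated. Figures were drawn with matplotlib 3.10.9.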

Additional observations from a re-analysis of the deposited data

How the results depend on the processing

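NF2 and both LATS genes kept their direction and their side of the threshold under all 17 other settings. With library size alone STK3 (-0.16) and MOB1A (-0.082) were no longer called, STK4 (0.094) and MOB1B (0.17) were, and SAV1 turned to 0.028. With the expression-level trend removed YAP1 (0.11), WWTR1 (0.12), STK4 (0.12) and MOB1B (0.16) were called higher, MOB1A (-0.061) was lost, SAV1 turned to 0.011, and 6 of the 10 genes were called in all, where 31.8% of all genes were. With the GC trend removed YAP1 was at -0.0089 and WWTR1 at -0.00025. The cause of these changes was not tested. Leaving out each library in turn gave ranges of -0.0021 to 0.050 for YAP1, 0.020 (without PBS replicate 3) to 0.069 for WWTR1, -0.24 to -0.19 for STK3, -0.092 to 0.041 for SAV1, -0.16 to -0.11 for MOB1A and 0.057 to 0.21 for MOB1B. SAV1 was at 0.041 without TPBC-PEG replicate 3, 0.033 without PBS replicate 1 and 0.0053 without PBS replicate 2, and YAP1 at -0.0021 without PBS replicate 2. The same omissions gave 2 to 3 of the 10 genes, 11 to 18 upstream regulators and 1 to 2 TEAD and VGLL genes called. The share of all genes called was then 25.6% to 29.8%, against 33.2% with all libraries. The TEAD and VGLL count was also 1 under scaling by library size and after removal of the expression-level trend. Of all genes, 32.7% and 31.8% were called under these 2 settings. Over all genes 2574 were higher and 2682 lower, and with library size alone 3213 and 1971. TEAD1, at -0.0049, turned to 0.039 with library size alone, 0.00036 with upper quartile scaling and 0.074 with the expression-level trend removed, and ran from -0.025 to 0.016 when each library was left out. CCN1 turned to 0.0047 with that trend removed, and STRN to -0.031 with the GC trend removed. PPP2CB turned to -0.00076 with DESeq2 size factors, -0.0013 with no filter, -0.0018 with DESeq2 and -0.023 with the GC trend removed, and ran from -0.054 to 0.045 when each library was left out. Among the other genes named, changed calls stand beside their values. When each library was left out, the difference of ratios ran from -0.050 to 0.017 for YAP1 to WWTR1, so its sign turned. It ran from 0.16 to 0.23 for LATS1 to LATS2 and from -0.30 to -0.23 for STK3 to STK4. For MOB1A to MOB1B it ran from -0.32 to -0.21. Summed counts gave values within these ranges.

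Same-numbered libraries showed little shared deviation (r across genes 0.0034, 0.065 and -0.015 for numbers 1, 2 and 3). Libraries with different numbers gave r from -0.055 to 0.051. A weak shared effect could be missed this way, and no label says whether the numbers pair the samples. With the replicate block 3 of the 10 genes were called, as without it, and NF2 stood at -0.29. Over all genes the block gave 5175 calls, against 5256 without it, and among all genes named it changed only the call of STRN3. Counting alone gives a spread of 4.09% for STK3 and 4.07% for LATS2, the 2 genes with the fewest counts, against 1.34% for YAP1, and their standard errors, 0.067 each on the log2 scale, were the largest of the 10.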

Other observations

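STRIPAK joins striatins, PP2A and MST-related kinases, and is known to remove activating phosphates from the MST kinases. Its genes, grouped here after their values were seen, went both ways with TPBC-PEG. PPP2CA, a catalytic subunit of PP2A, fell to 199 ± 4.59 CPM with TPBC-PEG, against 226 ± 12.6 CPM with PBS (SD, n = 3 each), while PPP2CB, the other catalytic subunit gene, stood at 82.7 ± 5.83 CPM with TPBC-PEG and 82.6 ± 5.72 CPM with PBS. Among the striatin genes, STRN4 fell by 0.16 on the log2 scale (edgeR adjusted p = 0.0149) and STRN3 rose by 0.14 (edgeR adjusted p = 0.0396), while STRN was at 0.028 (edgeR adjusted p = 0.672). The STRN4 call was lost without TPBC-PEG replicate 3 (edgeR adjusted p = 0.0575), with library size alone (0.0858) and with the GC trend removed (0.247). The STRN3 call was lost under 8 of 17 other settings, which include leaving out TPBC-PEG replicate 2 or 3 or PBS replicate 2 or 3, DESeq2 (adjusted p = 0.108) and the replicate block (edgeR adjusted p = 0.0507). STK25, a kinase of the complex, fell by 0.19 (edgeR adjusted p = 0.000773), and SLMAP, which links the complex to the MST kinases, was at 0.054 (edgeR adjusted p = 0.379).

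The NDR kinase genes, relatives of the LATS kinases that also bind MOB1, had opposite signs. STK38 stood at 34.8 ± 2.07 CPM with TPBC-PEG and 40.2 ± 3.29 CPM with PBS, and was called lower at -0.21 (edgeR adjusted p = 0.0119), although the libraries of the groups overlapped. The call was lost without TPBC-PEG replicate 2 (edgeR adjusted p = 0.11), PBS replicate 1 (0.0767) or PBS replicate 3 (0.0549) and with library size alone (0.0515). STK38L stood at 28.5 ± 1.41 CPM with TPBC-PEG and 25.6 ± 0.853 CPM with PBS, at 0.15 (edgeR adjusted p = 0.112), and passed with library size alone (0.19, edgeR adjusted p = 0.0396).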
